A study of Mus musculus with 36 samples.

Results

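ERV1 families, the class I endogenous retroviruses of the mouse genome, were followed in mouse embryonic fibroblasts (MEFs) in which the transcription of the major satellite repeat (MSR) was forced. They were taken as all rows of the repeat count table whose family entry is ERV1 and whose class entry is LTR, which gave 147 of 1561 repeat families. RNA was measured in 36 libraries, 3 for each of 12 groups. The groups were the MSR-dCas9-Control line and the MSR-dCas9-Activator line, each sampled uninduced, induced (doxycycline, 10 ng/ml), and then 3, 6, 12 and 24 h into a chase without the drug. Both lines carried a guide RNA against the MSR unit, expressed without induction, and a dCas9 protein that binds DNA without cutting it. In the Activator line dCas9 was fused to VPR, a transcriptional activator, and in the Control line it carried no effector. Induction lasted 24 h in the Control line and 6 h in the Activator line, so that the induced groups differ in the length of exposure as well as in the effector, and these cannot be told apart. Both lines were made by PiggyBac transposition and hygromycin selection. With 1 line for each construct, the effector and the line cannot be told apart. The labels number the replicates 1 to 3 and do not say whether they came from separate cultures. The paper describes them as 3 biological replicates per cell line, and for this time course as 3 independent experiments. With 1 line for each construct, p-values measure the spread between these libraries.

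Class I endogenous retroviruses are related to the gammaretroviruses. A complete provirus holds an internal region, with gag and pol and in some groups env, between long terminal repeats (LTRs) that carry the promoter and the polyadenylation signal. Most copies have recombined to a solitary LTR. In the mouse the class includes the murine leukaemia viruses (MLV), the VL30 elements, which do not encode a full set of viral proteins but can be packaged as RNA, the GLN and MuRRS groups, and MuRVY, which is found repeated on the Y chromosome. Such copies are normally held silent by KRAB zinc finger proteins that bring Trim28 and the H3K9 methyltransferase Setdb1 to the provirus, and by DNA methylation. Each row of the table counts reads from all copies of a family together, so a count has no position in the genome. In the family names, the ending -int marks an internal region, and the other rows are LTRs.

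The libraries held from 35092024 to 71148411 counts on genes and repeats together (median 54897496), of which repeat families held from 7369635 to 16752224. Normalised read counts are counts divided by the effective size of the gene library and brought to the mean library. The targeted repeat, GSAT_MM, ranged from 951 to 1968 normalised counts in the 18 Control libraries. In the Activator line it stood at 4233, 2234 and 3849 before induction, at 151521, 99120.4 and 1059658 after it and at 335754, 824284 and 2003898 at 12 h, for replicates 1 to 3. GSAT_MM was thus above the Control line already in uninduced Activator cells, by 2.34 times in the means. Of 10 fibroblast markers 9 had a median above 40 normalised counts, and Thy1 stayed between 0 and 8.74. The summed level of the list fell in both lines. In Activator cells it went from between 1425311 and 1473796 uninduced to between 479407 and 864026 at 24 h. In Control cells it went from between 1308588 and 1478157 to between 987543 and 1093274. After induction the sums of the lines overlapped. Single genes of the list parted. Against all Control libraries of the same time, 4 genes lay above and 2 below after induction. At 12 h 3 lay above and 5 below, and at 24 h 1 and 5. The 9 markers of other cell types summed to between 208.5 and 294.9 in the Control line, to between 251.3 and 327.2 in uninduced Activator cells and to between 434.0 and 1816 in Activator cells from induction on. Of these 9 genes, 5 or 6 lay above all Control libraries of the same time from induction on, and at most 2 lay below. For neither list was this set against the share over all genes without overlap, which was not counted. By the edgeR test described below, from 26.1% to 38.3% of all 28542 genes tested were called higher from induction on. From 18.9% to 28.5% were called lower. Pecam1 gave most of the sum (from 212.0 to 1371 in Activator cells from induction on). Epcam, Cdh5, Ptprc and Pou5f1 were near the floor, with medians of 0, 1.76, 2.62 and 4.38 over all libraries. The part of these shifts in the results below was not tested.

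ERV1 RNA was higher in Activator than in Control cells after induction and throughout the chase. Summed over the 147 families, it amounted to 148686, 173362 and 151087 normalised counts in induced Control cells and to 217742, 183719 and 256508 in induced Activator cells. At 12 h the Control libraries held 158098, 143394 and 137704 and the Activator libraries 297646, 308914 and 320568. At 24 h the sums were 179499.8, 174726 and 173542 in the Control line and 293236, 246012 and 269416 in the Activator line. Every Activator library lay above every Control library at all 6 time points, the uninduced one included. Before induction the VL30 group gave 72.8% of the mean difference. Without VL30 the uninduced sums were 115952, 115310 and 122411 in Control and 118839, 113968 and 133924 in Activator cells, and they overlapped. The log2 ratio of the means was 0.15 before induction and 0.48 after it, and then 0.63, 0.65, 1.08 and 0.62 at 3, 6, 12 and 24 h. A two-sided exact permutation test gave p = 0.1 each time, the smallest that 3 against 3 libraries allow. ERV1 also took a larger part of all repeat counts, 2.06 ± 0.0450% in Activator cells and 1.49 ± 0.129% in Control cells at 3 h (mean ± SD, n = 3), with no overlap between the lines from induction on. In total RNA of whole cultures, more cells with ERV1 RNA and more ERV1 RNA per cell cannot be told apart. The sums depended on the scaling. When libraries were scaled to the 13 mitochondrially encoded mRNAs, the log2 ratio was 0.10 after induction and 0.059, -0.018, 0.46 and 0.37 over the chase, so that the direction turned at 6 h.

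**Figure D1:**
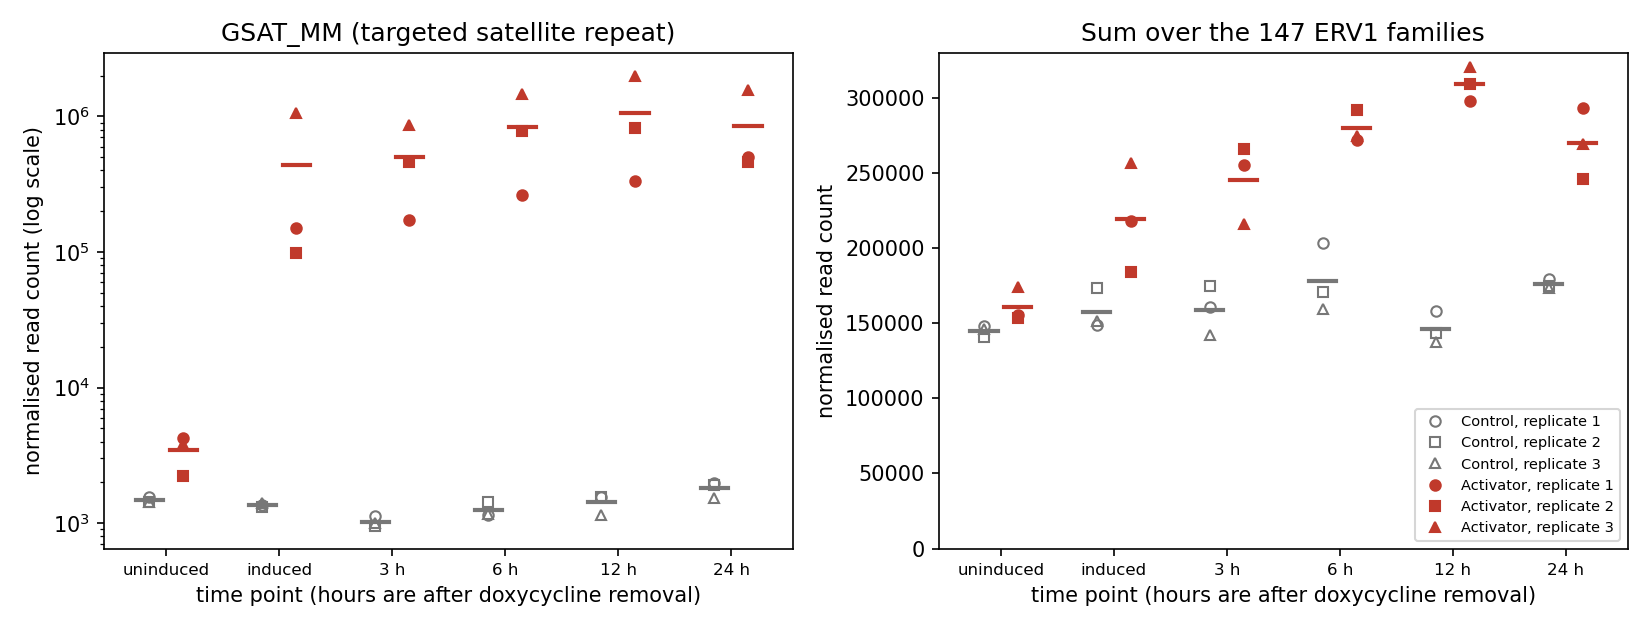
Normalised read counts of GSAT_MM (left, log axis) and of the 147 ERV1 families summed (right, linear axis from 0) in each of the 36 libraries, by time point. Open symbols are Control and filled symbols Activator libraries, the shape gives the replicate, and bars are means of 3. The Activator sums sit above the Control sums at each time and reach 297646, 308914 and 320568 at 12 h.

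The difference was spread over many families. The 5 families with the most counts held 38.2% of ERV1 counts and the first 20 held 68.7%, and 99 of 147 families had a mean of at least 100 normalised counts. Of the mean difference between the lines at 12 h, 162644 normalised counts in all, the MuRRS group gave 16.4%, the VL30 group 16.2%, the RLTR1 group 6.04% and the GLN group 5.09%. At 24 h the parts were 17.1%, 10.7%, 5.27% and 11.8%.

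Family by family, 138 of the 147 had enough reads to be tested, and the other 9 held at most 143 counts over all libraries together. A family was called when its p from the quasi-likelihood test of edgeR, adjusted by Benjamini-Hochberg over all repeat families, was under 0.05 and its fold change lay beyond 0.5 on the log2 scale. In uninduced cells no ERV1 family was called (4 at an unadjusted p under 0.05 in edgeR, and 0 called by DESeq2), where 0.067% of all 1492 repeat families tested were. In induced cells 57 ERV1 families were higher with the Activator, 41.3% of those tested, where 20.2% of all repeat families were, and 14 were lower, 10.1% beside 12.3% (32.5% of all repeat families were called in either direction). After 3 h of chase 72 were higher and 14 lower, or 52.2% and 10.1%, beside 31% and 15.8% of all repeat families (46.8% called). The 6 h libraries gave 75 and 14, or 54.3% and 10.1%, beside 34.4% and 11.2% (45.6% called). The count peaked at 12 h with 92 higher and 10 lower, 66.7% and 7.25%, where 45.4% and 5.76% of all repeat families were called (51.1% together). By 24 h it was down to 68 and 6, or 49.3% and 4.35%, beside 29% and 2.28% (31.3% together). The median log2 fold change over the 138 was 0.04 before induction, then 0.38, 0.60, 0.60, 0.92 and 0.54. Over all repeat families tested it was 0.03, 0.00, 0.11, 0.21, 0.45 and 0.24. The ERVK class of LTR retroviruses, with 279 families tested, had medians of 0.36 after induction and 0.94 at 12 h, and the ERVL class 0.13 and 0.64. Of the ERVK families 39.8%, 59.9%, 68.5%, 82.4% and 53.4% were called higher from induction to 24 h. Of the ERVL families 21.1%, 36.7%, 43.1%, 62.4% and 36.7% were. From 3 h on the share higher was thus larger in ERVK than in ERV1. ERV1 had the larger share of falls, 14 of 138 after induction beside 6 of 279 for ERVK. These differences were not tested.

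Few of the falls came from families with many reads. Among the 99 families with a mean of at least 100 counts, 48 were higher and 4 lower after induction, and 64 were higher and 3 lower at 6 h. The shares of all repeat families under this minimum, and under the scalings below, were not counted. Whether such splits are particular to ERV1 was thus not tested. The split into rises and falls also moved with the scaling. Scaled to mitochondrial mRNAs, the numbers higher and lower from induction to 12 h became 26 and 23, then 32 and 28, then 30 and 32, then 47 and 18, while the median of all repeat families shifted by -0.36, -0.57, -0.69 and -0.64 on the log2 scale. With library sizes from the repeat families themselves, 47 were higher and 12 lower at 24 h.

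**Figure D2:**
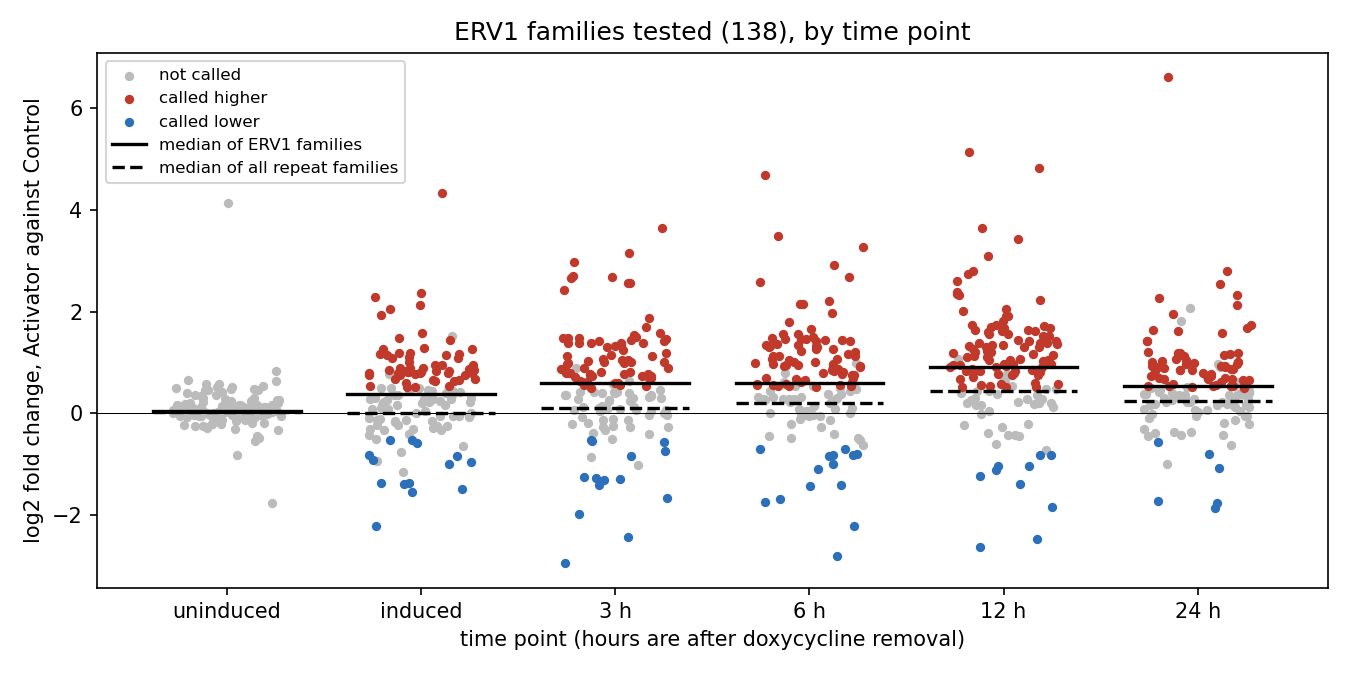
Log2 fold change (Activator against Control) of each of the 138 ERV1 families tested, by time point. Red and blue points are families called higher and lower, grey points are not called, solid bars are the ERV1 median and dashed bars the median of all 1492 repeat families. The ERV1 median lies at 0.04 before induction and is highest at 12 h, at 0.92.

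The calls recurred across time points. Each time point had its own libraries, but all came from the same Control and Activator lines. They were tested in 1 fit with shared replicate numbers, so the time points are not independent tests. From induction on, 50 of the 138 families were called higher at all 5 time points, 44 others were called higher at 1 to 4 of them and never lower, 20 were called lower at 1 or more and never higher, 23 were never called, and 1 (RLTR41C) was called in both directions. Families higher at all 5 made up 36.2% of those tested in ERV1 and 17.4% of all 1492 repeat families tested. For the other patterns the shares were 31.9% and 29% (higher at 1 to 4), 14.5% and 18.6% (lower), and 16.7% and 34.5% (never called). Recurrence was not counted for ERVK or ERVL alone. For 95 of 138 families the fold change was highest at 12 h, and for 22 at the 24 h point. Internal regions and LTRs both moved. Of all repeat families 20.2% were higher and 12.3% lower after induction, and 45.4% and 5.76% at 12 h. Of the 28 internal regions tested 14 were higher and 1 lower after induction (50% and 3.57%, median log2 fold change 0.59). At 12 h 20 were higher and 1 lower (71.4% and 3.57%, median 1.19). Of the 110 LTR rows 43 were higher and 13 lower after induction (39.1% and 11.8%, median 0.30), and at 12 h 72 and 9 (65.5% and 8.18%, median 0.87). Families were also counted by name. Of 75 families named MER or LTR with a number, many of which are old repeats shared among mammals, 19 were higher and 10 lower after induction (median 0.11). These shares, 25.3% and 13.3%, were near those of all repeat families. Of the other 63, most of them rodent or mouse families, 38 were higher and 4 lower (60.3% and 6.35%, median 0.76). At 12 h the 75 gave 37 and 9 (49.3% and 12%) and the 63 gave 55 and 1 (87.3% and 1.59%). The difference between these groups of families was not tested.

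The MuRRS group held the family that rose most among those called with at least 100 normalised counts. MuRRS elements are gammaretrovirus-related proviruses of the mouse, and their LTRs are named LTRIS. All 11 rows of the group were tested. After induction 9 were called higher and none lower, at 12 h 10 and none, and 8 were called higher at all 5 time points. Of all repeat families tested, 20.2% were higher and 12.3% lower after induction, and 45.4% and 5.76% at 12 h. Those higher at all 5 time points made up 17.4%. MuRRS-int ranged from 729 to 1029.8 normalised counts in the 18 Control libraries and stood at 845, 838 and 1126 in uninduced Activator cells. Induced Activator cells held 4030.3, 2437 and 4959, and the counts went to 5931, 5554 and 4589 at 3 h and 7140.1, 6265 and 7249 at 6 h. They peaked at 12 h with 8626, 7563 and 9458 and stood at 7626, 3246 and 6392 at 24 h. No Activator library from induction on overlapped with a Control library. Replicate 2 was the lowest in induced cells and at 6, 12 and 24 h, and replicate 3 at 3 h. GSAT_MM was lowest in replicate 2 in induced cells and at 24 h, but in replicate 1 at 3, 6 and 12 h. The log2 fold change was 2.14 ± 0.20 after induction (± SE, edgeR adjusted p = 3.39e-10) and 3.42 ± 0.21 at 12 h (adjusted p = 2.59e-15), with 2.69, 2.93 and 2.54 at 3, 6 and 24 h.

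Its relative MuRRS4-int had higher counts in the Control line and smaller fold changes. It ranged from 1204 to 1822 in the Control libraries and reached 3835, 2405 and 4295 in induced Activator cells and 4736, 4871 and 5206 at 12 h. The log2 fold changes were 1.30 ± 0.15 and 1.69 ± 0.15, and 1.16 at 24 h. The counts of MuRRS-int divided by those of MuRRS4-int, a ratio that no scaling can move, averaged 0.519 ± 0.0262 in Control and 1.73 ± 0.154 in Activator cells at 12 h (SD, n = 3), without overlap. A two-sided exact permutation test gave p = 0.1, the smallest possible, and the pair was chosen after the values were seen.

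Most LTRs of the group followed. LTRIS_Mm held 518, 693 and 685 in induced Control and 1447, 1086 and 2119.9 in induced Activator cells, and 533, 603 and 555 against 2880.0, 2521 and 3288 at 12 h. Its log2 fold changes were 1.27 and 2.35, and 1.61 at 24 h. LTRIS_Mus, the LTR of the group with the most counts, went from 2509, 2440.4 and 2349 in Control to 9710.5, 7507 and 10639 in Activator cells at 12 h, and its log2 fold changes at induction, 12 h and 24 h were 0.78, 1.92 and 1.43. LTRIS2 gave 1.14, 1.74 and 0.86, and LTRIS3 1.48, 1.69 and 1.16. LTRIS6 was called at 12 h alone, when it held 173, 233 and 191 in Activator and 122, 108 and 87.3 in Control cells. LTRIS5 was called at none of the 6 time points. It ranged from 149 to 227 in Control and from 113 to 269 in Activator cells, so that the lines overlapped at 4 of 6 times. At 12 and 24 h the Activator libraries lay above those of the Control line, at 204, 213 and 269 against 177, 199.9 and 179 at 12 h.

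**Figure D3:**
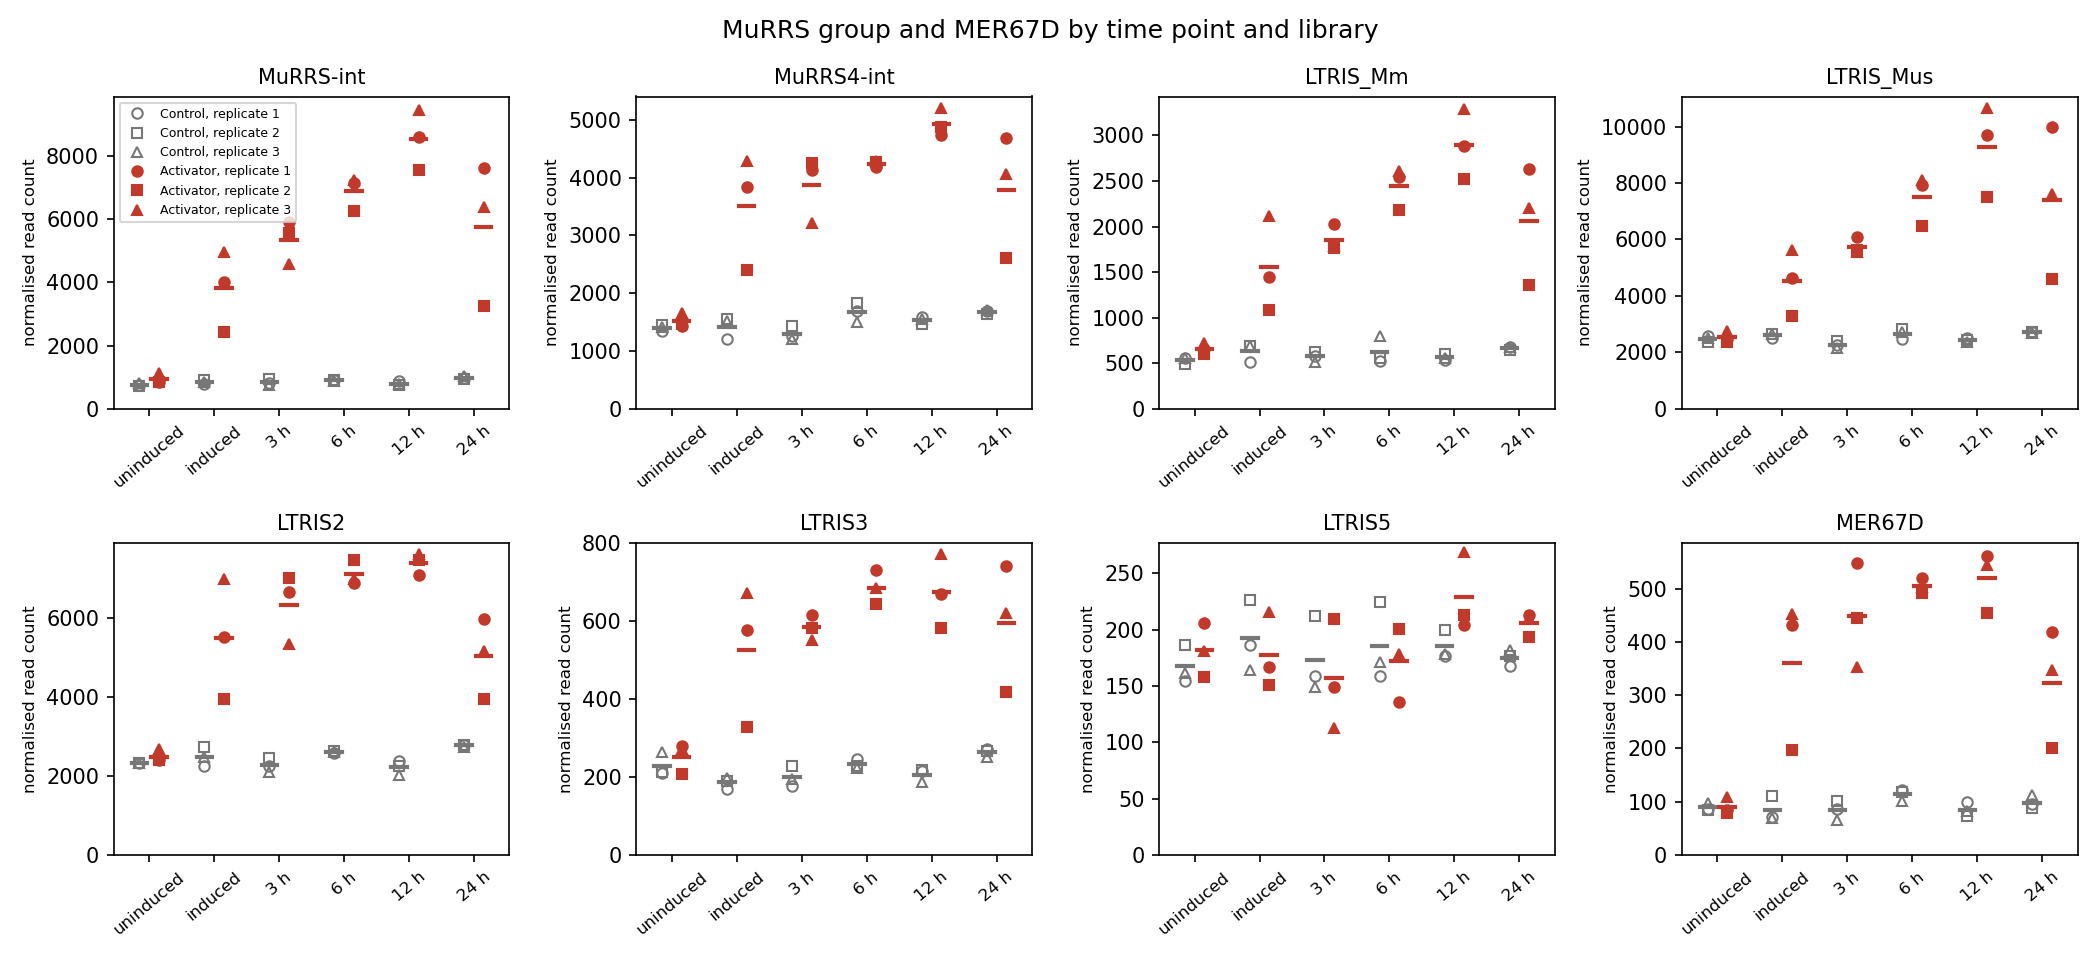
Normalised read counts of 7 rows of the MuRRS group and of MER67D in each library (linear axes from 0, 1 panel a family), by time point. Open symbols are Control and filled symbols Activator libraries, shapes are replicates and bars means of 3. In all panels but that of LTRIS5 the induced Activator libraries sit above the Control libraries, and replicate 2 (square) is the lowest in induced cells and at 24 h.

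MER67D, an LTR family with far fewer reads, rose as early as MuRRS-int. It held 71.3, 109.9 and 69.9 in induced Control and 432, 198 and 452 in induced Activator cells, a log2 fold change of 2.06 ± 0.22 (edgeR adjusted p = 3.53e-11), which was 2.61 at 12 h and 1.69 at 24 h. The RLTR41 and RLTR48 families, LTRs of rodents, were also among the risers. Of the 8 RLTR41, RLTR47 and RLTR48 rows, 5 were higher and 2 lower after induction, and 7 were higher at 12 h and at 24 h with none lower. The shares of all repeat families higher and lower were 20.2% and 12.3% after induction. They were 45.4% and 5.76% at 12 h and 29% and 2.28% at 24 h. RLTR48B held 173, 159 and 143 in Control and 751, 823 and 797 in Activator cells at 12 h. Its log2 fold change was 1.10 after induction, 2.32 at 12 h and 1.75 at 24 h. RLTR48C rose more slowly, from 623, 372 and 655 after induction to 1925, 1321 and 1812 at 12 h and 2062, 714 and 1486 at 24 h, with log2 fold changes of 0.83, 2.39 and 1.97. Its libraries at 24 h differed widely, and replicate 2 was the lowest. Its call after induction was lost without replicate 3 of both lines (0.65).

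RLTR41C changed sign over time. After induction it was lower in Activator cells, at 129, 134 and 151 against 178, 208 and 208 in Control cells (log2 fold change -0.52, edgeR adjusted p = 0.0144). At 12 h it was higher, at 510.4, 347 and 524 against 240.3, 215 and 207 (log2 fold change 1.04, edgeR adjusted p = 1.1e-07), and the log2 fold change at 24 h was 0.92. The groups did not overlap after induction or at 12 h. The early fall was close to the limit of 0.5, and it was no longer called without Control replicate 2 (-0.41) or without Activator replicate 1 (-0.44). Leaving out replicate 1 (-0.56), 2 (-0.45) or 3 (-0.56) of both lines also ended the call.

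The VL30 group held the ERV1 families with the most counts, and its members parted. Its internal regions are listed as MMVL30-int and RLTR6-int and its LTRs as RLTR6_Mm, RLTR6B_Mm and RLTR6C_Mm. VL30 RNA is expressed in many mouse cells and responds to growth stimuli and stress. MMVL30-int, the ERV1 family with the highest count, was called at none of the 6 time points. It ranged from 10509 to 57904 in Control and from 16581 to 42015 in Activator cells. The highest Control value came from replicate 1 at 6 h, where the 3 Control libraries held 57904, 22603 and 18679, and the highest Activator value from replicate 2 at 24 h, among 16581, 42015 and 20477. The lines overlapped from induction to 6 h and at 24 h, while before induction (17984, 14274 and 11879 in Control, 18876, 23339.5 and 21055 in Activator cells) and at 12 h the Activator libraries lay above the Control libraries. The VL30 rows summed to 26975 ± 4771 in Control and 38619.8 ± 1973 in Activator cells before induction (SD, n = 3), when none of the 5 was called. RLTR6-int rose with induction. It held 11154, 12601 and 9573 in induced Control and 18116, 17915 and 22632 in induced Activator cells, and 10678, 8849 and 7568 against 23934, 28825 and 26652 at 12 h. The lines did not overlap at either time. Its log2 fold change was 0.83 ± 0.15 after induction (edgeR adjusted p = 1.87e-05) and 1.56 ± 0.16 at 12 h, with 1.04, 0.96 and 0.80 at 3, 6 and 24 h. Its uninduced Activator libraries, at 12819, 12110.2 and 13957, already lay above those of the Control line, at 10239.9, 8510.3 and 8666, a difference that was not called.

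The ratio of RLTR6-int to MMVL30-int counts within a library compares these rows without any scaling. It was 0.569, 0.596 and 0.730 in uninduced Control and 0.679, 0.519 and 0.663 in uninduced Activator cells. At 6 h it was 0.332, 0.458 and 0.512 in Control and 1.02, 1.07 and 1.09 in Activator cells, and at 12 h 0.601, 0.600 and 0.720 against 1.25, 1.37 and 1.43. The lines did not overlap from induction to 12 h (two-sided exact permutation p = 0.1, the smallest possible). At 24 h they did, through Activator replicate 2, whose ratio of 0.544 lay within the Control range, while replicates 1 and 3 stood at 1.32 and 1.05. This ratio was chosen after the values were seen. Among the LTRs, RLTR6B_Mm was higher at all 5 times, with log2 fold changes of 0.75 after induction, 1.82 at 12 h and 0.73 at 24 h. Its call after induction was lost without replicate 3 of both lines (0.48). RLTR6_Mm was higher at 12 h alone (0.98, edgeR adjusted p = 0.0165), and that call was lost without Control replicate 2 (0.91) or 3 (0.86) or without Activator replicate 3 (0.82). RLTR6C_Mm was lower at 3 h (-0.74) and 6 h (-0.80). Without Control replicate 1, which held 384 counts at 6 h where the other Control libraries held 141 and 145, the values were -0.69 and -0.22 and were not called. Leaving out Control replicate 3 at 3 h (-0.72), Activator replicate 1 (-0.63 at 3 h and -0.71 at 6 h) or Activator replicate 3 at 3 h (-0.76) also ended the call.

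The MLV group had few calls. Its rows are MuLV-int and RLTR4_MM-int, internal regions, and the LTR RLTR4_Mm. None of the 3 was called after induction or at 24 h. MuLV-int was called at no time and ranged from 3258 to 5126 in Control and from 3076 to 5675 in Activator cells, with overlap at each time but 3 h. RLTR4_MM-int rose at 6 h, with 6744, 6569 and 8448 in Control and 10532, 11911 and 10971 in Activator cells (log2 fold change 0.62), and at 12 h (0.81, edgeR adjusted p = 7.43e-08). The call at 6 h was lost without replicate 2 of both lines (0.50), and with mitochondrial scaling the value was -0.072. RLTR4_Mm was called higher at 3 h (0.75) and 12 h (1.05). The call at 3 h was lost without Control replicate 3 (0.49) and without Activator replicate 2 (0.73) or 3 (0.74), and that at 12 h without replicate 2 of both lines (0.96) or replicate 3 of both (0.72).

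The GLN group had another time course. MMERGLN-int, its internal region, held 4068, 5501 and 4837 in induced Control and 7006, 5477 and 8197 in induced Activator cells, and went on rising to 10051, 14032 and 12582 at 12 h and 15668, 12011 and 19495 at 24 h, when Control cells held 5018, 4933 and 5784. The log2 fold change was 0.53 after induction, then 0.79, 0.83 and 1.35 at 3, 6 and 12 h, and 1.58 ± 0.14 at 24 h (edgeR adjusted p = 4.61e-16). The groups overlapped after induction, and the call there was lost without Control replicate 1 (0.44), Activator replicate 1 (0.47) or Activator replicate 3 (0.40). Within the Activator line MMERGLN-int was higher at 24 h than after induction, by 1.19 ± 0.14 on the log2 scale (edgeR adjusted p = 1.45e-10), and the groups at these times did not overlap. Its LTR, MMERGLN_LTR, gave 0.41 after induction, which was not called, then 0.72, 1.04 and 0.77 at 3, 12 and 24 h. Without Control replicate 2 or Activator replicate 2 the value after induction was called, at 0.53 and 0.55.

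MuRVY and RLTR1 rose as well. MURVY-int held 141, 187 and 176 in induced Control and 351, 249 and 368 in induced Activator cells, and 156, 123 and 139.9 against 560.2, 599.9 and 566 at 12 h, without overlap at either time. The log2 fold change was 0.96 after induction (edgeR adjusted p = 9.19e-06), 2.05 at 12 h and 1.19 at 24 h. Its LTR, MURVY-LTR, was called from 6 h on, with 0.67, 0.82 and 0.54 at 6, 12 and 24 h. The call at 24 h was lost without Activator replicate 1 (0.41), and with mitochondrial scaling the value at 6 h was -0.023. Of the 8 RLTR1 rows 5 were higher and 1 lower after induction and 7 were higher and none lower at 12 h. Beside them, 20.2% of all repeat families were higher and 12.3% lower after induction, and 45.4% and 5.76% at 12 h. RLTR1B-int, the internal region, held 1566, 1497 and 1541 in Control and 4396, 4967 and 4889 in Activator cells at 12 h, with log2 fold changes of 0.66 after induction, 1.63 at 12 h and 0.70 at 24 h. The LTR RLTR1C gave 1.19, 1.52 and 0.85. The row lower after induction was RLTR1 (-0.83), with 39.2 ± 12.8 counts in Control and 22.3 ± 2.48 in Activator cells (SD, n = 3). It was not called without Control replicate 2 (-0.51) or without Activator replicate 1 (-0.90), 2 (-0.77) or 3 (-0.83). RLTR1E_MM was higher after induction (0.86) and at 24 h (1.00), and the first call was lost without replicate 1 (0.63) or 3 (0.84) of both lines.

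**Figure D4:**
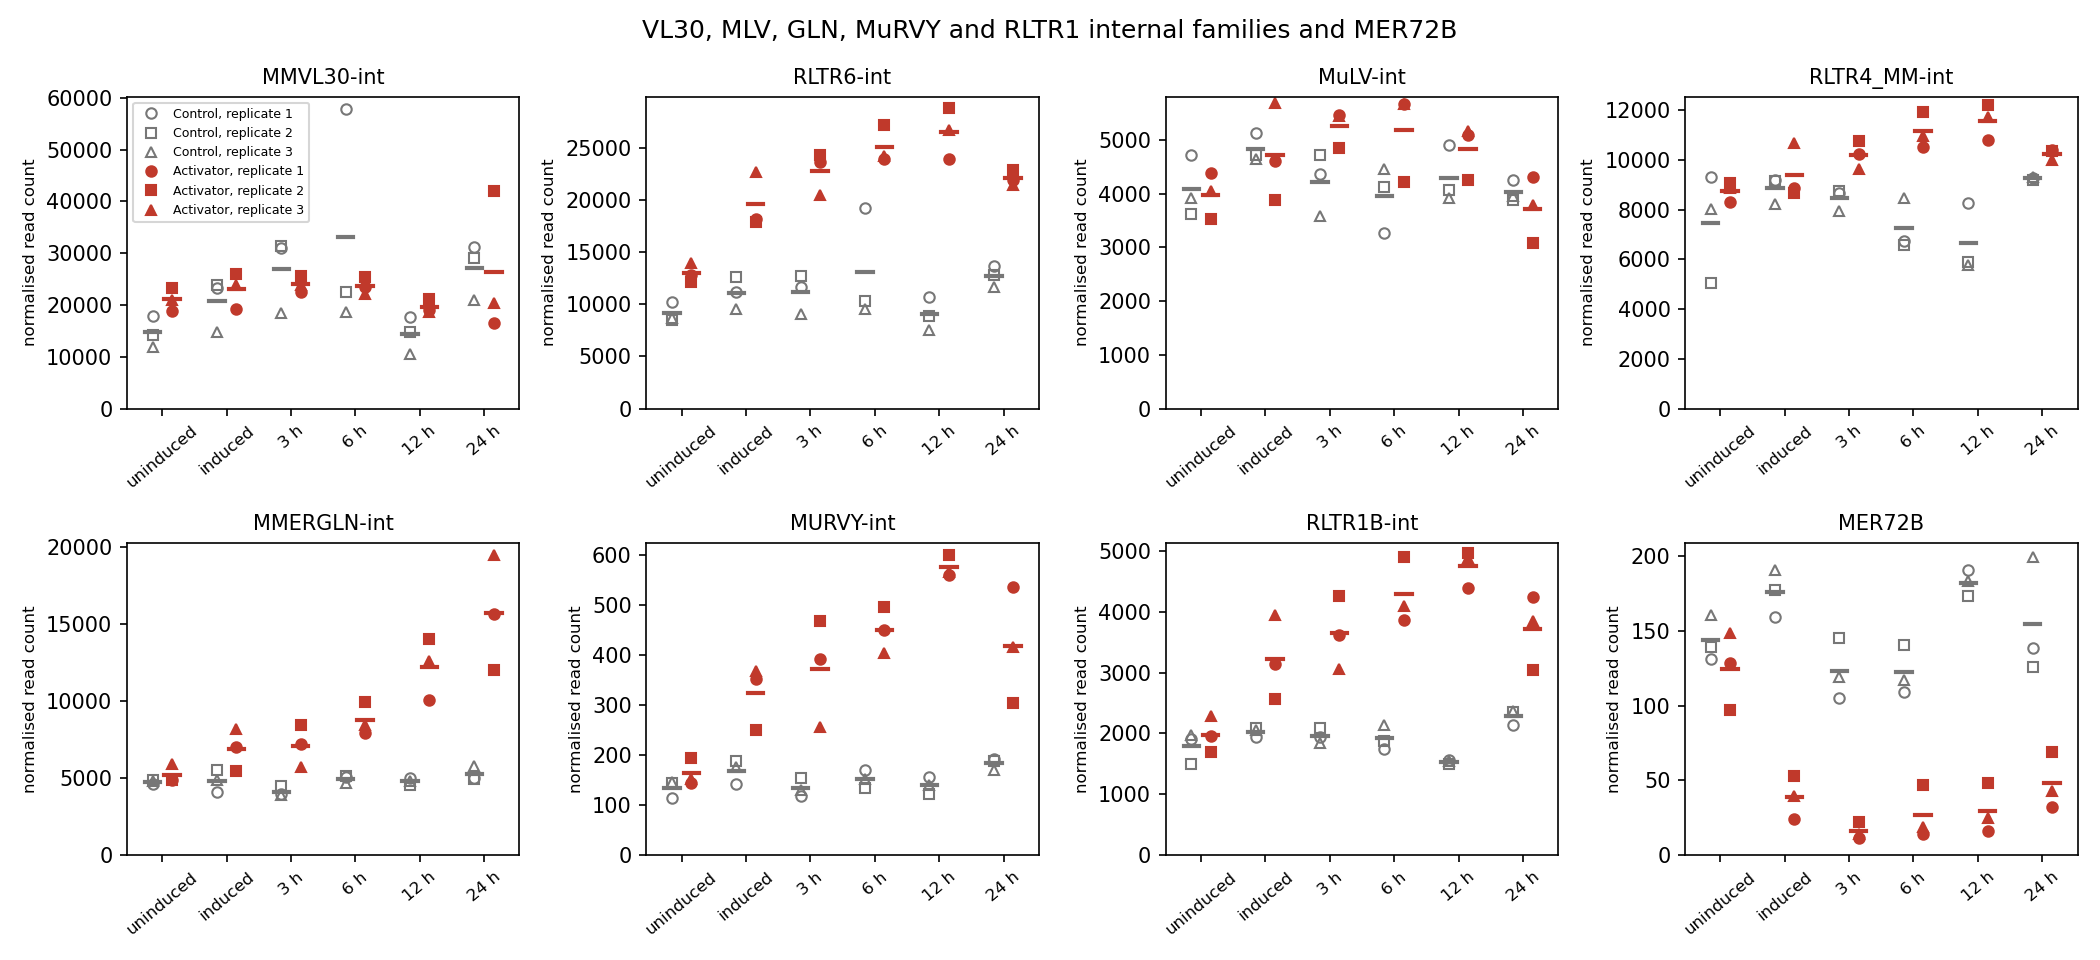
Normalised read counts of 7 internal regions and of MER72B in each library (linear axes from 0), by time point. Open symbols are Control and filled symbols Activator libraries, shapes are replicates and bars means of 3. MMVL30-int overlaps between the lines at 4 of 6 times and MuLV-int at 5 of 6, RLTR6-int, MURVY-int and RLTR1B-int are highest at 12 h, MMERGLN-int is highest at 24 h, and MER72B is lower in Activator cells from induction on. The rise of RLTR4_MM-int at 6 h turned to -0.072 on the log2 scale with mitochondrial scaling.

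Within a proviral group, the ratio of internal to LTR counts compares rows of one library and does not depend on the scaling. In the MuRRS group it was 0.330, 0.347 and 0.352 in induced Control and 0.596, 0.512 and 0.558 in induced Activator cells, and 0.379 ± 0.0243 against 0.622 ± 0.0106 at 12 h (SD, n = 3). In the MuRVY group it was 0.126, 0.139 and 0.140 against 0.224, 0.222 and 0.218 after induction and 0.112 ± 0.0139 against 0.263 ± 0.0226 at 12 h. Neither group overlapped between the lines at any time from induction on, and both overlapped before it. In the GLN group the ratio was 6.27 ± 0.349 in Control and 6.79 ± 0.224 in Activator cells after induction, without overlap, overlapped at 3, 6 and 12 h, and was 6.51 ± 0.651 against 11.4 ± 1.74 at 24 h, when the lines did not overlap. In the VL30 group it was 9.12 ± 0.449 in Control and 7.36 ± 0.545 in Activator cells at 12 h, lower without overlap, and it overlapped at the other times. The MLV ratio overlapped at 5 of 6 times and the RLTR1 ratio also at 5 of 6. Two-sided exact permutation tests gave p = 0.1 for the comparisons without overlap, the smallest that 3 against 3 libraries allow, and 0.240 after adjustment over the 36 tests of 6 groups at 6 times, so that none passes.

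Some of the most abundant rows moved late and by little. RMER5, an old rodent LTR and the third highest in count, held 14091, 13508 and 14235 in Control and 22243, 23355 and 23486 in Activator cells at 12 h (0.72 on the log2 scale, edgeR adjusted p = 2.89e-07), without overlap. At 24 h its log2 fold change was 0.50, and leaving out Control replicate 1 or 2 or Activator replicate 1 ended that call (0.50, 0.47 and 0.35). MLTR14 was called at 12 h alone (0.52), with 13307, 12592 and 12924 against 17513, 19499 and 18867. Its call was lost without Control replicate 2 (0.49), and the value was -0.12 with mitochondrial scaling.

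A few families fell. MER72B, an LTR family with few reads, was the clearest. It held 131, 139.5 and 161 in uninduced Control and 128, 97.1 and 148 in uninduced Activator cells, and 159, 177 and 191 against 23.9, 52.7 and 39.6 after induction. At 3 h the counts were 105, 145 and 119 against 11.5, 22.1 and 14.0, and at 24 h 139, 126 and 199.7 against 31.9, 68.8 and 43.0. Every Activator library from induction on lay below every Control library of its time. The log2 fold change was -2.22 ± 0.26 after induction (edgeR adjusted p = 1.32e-11), and -2.95, -2.21, -2.63 and -1.73 over the chase. RLTR30D_RN fell less and had more reads, with 740.1, 749 and 819.6 in Control and 388, 368 and 369.9 in Activator cells at 12 h. Its log2 fold changes were -0.58 after induction, -1.04 at 12 h and -0.56 at 24 h, and the first was not called without Activator replicate 2 (-0.48), nor the last without replicate 3 of both lines (-0.50). LTR77 and MER50B, singled out after their values were seen, were also called lower at all 5 times, and they averaged 70.0 and 18.7 normalised counts over the 36 libraries.

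Other falls were called at early times and not later. MER110A held 323, 397 and 387 in induced Control and 222, 178 and 227 in induced Activator cells (-0.81 on the log2 scale, edgeR adjusted p = 2.75e-05). At 3 h its value was -0.52, a call lost without Control replicate 1 (-0.45) or without Activator replicate 2 (-0.47) or 3 (-0.46), and it was not called from 6 h on. MER92-int, an internal region, was lower after induction (-0.52), at 3 h (-0.57) and at 6 h (-0.70), with 586, 756 and 631 against 500.3, 414 and 436 after induction. The call after induction was lost without Activator replicate 2 (-0.38), and that at 3 h without Activator replicate 3 (-0.49).

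Within each line, the change on induction was compared directly. In the Activator line 54 ERV1 families were higher and 14 lower in induced than in uninduced cells, or 49.3% in all, where 32% of all repeat families were called, 19.6% higher and 12.4% lower. In the Control line no family was called (3 at an unadjusted p under 0.05 in edgeR, 0 called by DESeq2), and none among all 1492 repeat families. The Control line was induced for 24 h and the Activator line for 6 h, and the part of this exposure was not tested. The lines differed in this change for 47 ERV1 families, or 34.1%, where 21.6% of all repeat families did. It was higher in the Activator line for 39 (11.8% of all repeat families) and lower for 8 (9.85%). The count of 47 was 15 without replicate 3 of all groups and 67 without replicate 2. Between induction and 24 h after removal 30 ERV1 families rose and 2 fell in the Activator line, or 23.2%, beside 27.7% of all repeat families (26.9% higher and 0.737% lower), a share that is not above the background. In the Control line none was called over the same interval (6 at an unadjusted p under 0.05 in edgeR, 0 called by DESeq2). The count of 32 in the Activator line rested on single libraries, with 18 without induced replicate 2, 51 without induced replicate 3 and 13 without replicate 1 of all groups, and on the scaling, with 8 higher and 6 lower when library sizes came from the repeat families. With mitochondrial scaling the change on induction gave 16 families higher and 37 lower in the Activator line, and the difference between the lines 6 higher and 11 lower. With these other scalings the shares of all repeat families were not counted.

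Genes of retroviral silencing, restriction and entry were measured in the same libraries, as a list of 24 silencing genes, 7 restriction genes and 4 receptors of retroviruses. None of the 35 was called in uninduced cells, where 0.956% of the 28542 genes tested were. In induced Activator cells 5 silencing genes were lower and none higher, where 20.7% of all genes were lower and 26.1% higher (46.8% called). The 3 h libraries had 7 lower and 1 higher (27% and 33.5% of all genes, 60.5% called), and those of 6 h had 12 and 1 (28.5% and 36%, 64.6% called). By 12 h 15 were lower and 1 higher (28.3% and 38.3%, 66.6% called), and after a day 12 and 2 (18.9% and 33.2%, 52.2% called). After induction and at 3 h the share of the 24 that was lower was close to that of all genes. From 6 h on it was larger, and the share higher was smaller than that of all genes at each of these times. These differences were not tested. Of the 7 restriction genes 3 were lower at each of these times, and of the 4 receptors 2 or 3. The median log2 fold change of the 24 was -0.16 after induction and -0.69 at 12 h, beside 0.10 and 0.15 over all genes. Setdb1, the H3K9 methyltransferase that acts on proviruses, averaged 4685 ± 589 normalised counts in Control and 1357 ± 353 in Activator cells at 6 h (SD, n = 3). Its log2 fold change was -0.98 after induction, -1.81 ± 0.15 at 6 h (edgeR adjusted p = 3.11e-11) and -0.82 at 24 h. Zfp809, a KRAB zinc finger protein that binds MLV-like proviruses, fell by 1.16 after induction and by 1.46 at 12 h, and Resf1, a partner of Setdb1 in silencing, fell by 1.36 and 1.51 and was not called at 24 h. Suv39h1, another H3K9 methyltransferase, gave -0.62 and -1.46. The corepressor Trim28 was not called at any time. Dnmt1, the maintenance DNA methyltransferase, and Cbx5, an HP1 protein, were not called after induction and gave -0.86 and -1.52 at 12 h. Morc2a, a HUSH-associated silencing factor, was higher from 3 h on and reached 1.19 at 12 h, and Tasor, a HUSH subunit, was higher at 24 h (1.04). Scaled to mitochondrial mRNAs, the log2 ratio of Morc2a was 0.0015 at 3 h and 0.60 at 12 h, that of Tasor 0.78 at 24 h and that of Setdb1 -2.41 at 6 h.

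Of the restriction genes, Apobec3, a cytidine deaminase that restricts retroviruses, and Fv1, a retrovirus-derived capsid-binding factor, were lower at all 5 times from induction on, at -1.29 and -1.42 at 12 h. Trex1, an exonuclease that clears DNA from the cytosol, was lower from induction to 12 h (-1.22 and -0.78 at these times). Bst2, also known as tetherin, which holds budding virus at the cell surface, was higher at 12 h (1.09, or 0.55 with mitochondrial scaling) and 24 h (1.68, or 1.69). Among the receptors, Slc7a1, used by ecotropic MLV, was lower at all 5 times (-1.09 at 6 h), and Xpr1, used by xenotropic and polytropic MLV, was not called at any time. The part of these genes in the change of the ERV1 families was not tested.

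**Figure D5:**
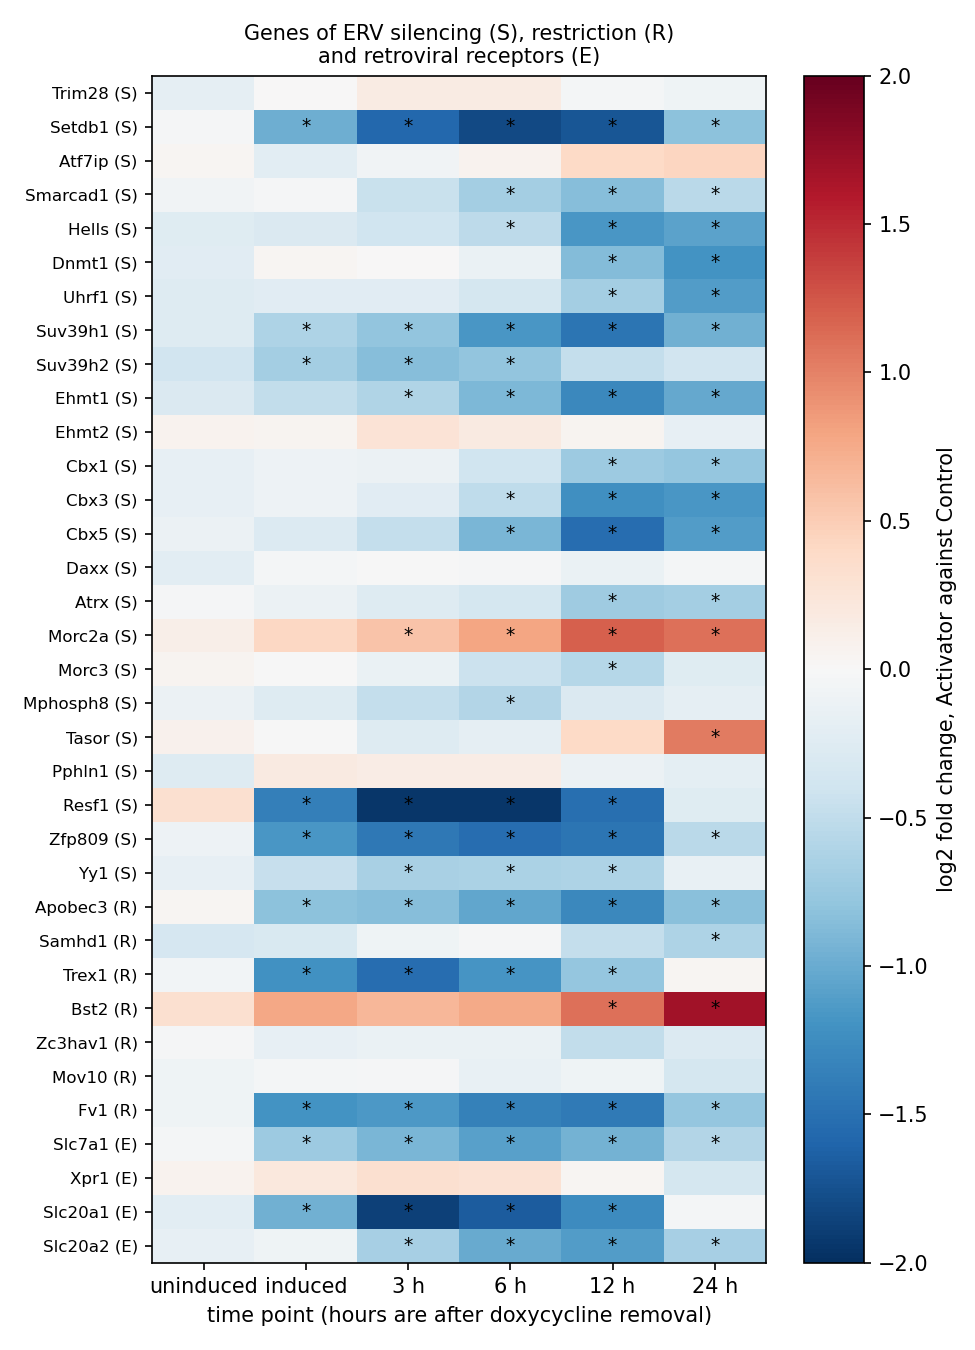
Log2 fold change (Activator against Control) of 24 silencing genes (S), 7 restriction genes (R) and 4 retroviral receptors (E), by time point, as a colour scale from -2 to 2. Asterisks mark genes called (adjusted p under 0.05 and log2 fold change beyond 0.5). No gene is called before induction, and Setdb1 reaches -1.81 at 6 h.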

How the data were processed

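Total RNA of 36 MEF libraries was sequenced, and the authors deposited 1 table of raw read counts per gene and per repeat family, made by adapter trimming with cutadapt, alignment with STAR to GRCm38 and counting with TEtranscripts. The labels name mm10 as well as GRCm38. The annotation release, the strand setting and the sharing of reads that map to several places are not given in the sources used here, so reads of near-identical families could be split between rows, and antisense reads could not be set apart. A row that names no feature (0.0021% to 0.0045% of counts) was left out.

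Counts were tested with edgeR 4.0.16 in R 4.3.3 (quasi-likelihood test, robust), with 1 fit over 36 libraries by group and replicate number. Library sizes and TMM factors came from the 54842 gene rows only. The edgeR filter on low counts kept 1492 of 1561 repeat families and 28542 genes, and p-values were adjusted by Benjamini-Hochberg over all repeat families, or all genes, in each comparison. Standard errors were derived from the F statistic of each test and its log2 fold change. Sums and ratios were compared by two-sided exact permutation tests with scipy 1.17.1. The script was tested on simulated data. The lowest chi-square per degree of freedom between replicates was 16.1, so no library was counted as a duplicate. Depth ranged from 35092024 to 71148411 counts per library.

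Families named were those of the VL30, MLV, GLN, MuRRS, MuRVY and RLTR1 groups, the 5 with the most counts, and the 5 largest rises and falls after induction and at 24 h among those called with at least 100 normalised counts. The name pattern for MLV also took in RLTR41, RLTR47 and RLTR48, which were set apart after the values were seen. The members, gene lists and tests were chosen with earlier results of these data known. Alternatives were other scalings, filters, fold limits and tests, a fit without the replicate number, and leaving out each replicate and each library. Library sizes from repeat families were added after seeing the data. Repeat lengths and positions were not used here, so levels are not compared between families.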

Additional observations from a re-analysis of the deposited data

Results flagged for a closer look

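The lines differed in their change on induction for 47 ERV1 families by the interaction term of the edgeR fit (adjusted p under 0.05 and difference beyond 0.5 on the log2 scale). The count was 15 without replicate 3 of all groups and 67 without replicate 2. The differences below are the change in the Activator line less that in the Control line, on the log2 scale, for the 20 families among them that the naming rule covers. In the MuRRS group they were 1.84 for MuRRS-int, 1.18 for MuRRS4-int, 1.35 for LTRIS3, 1.05 for LTRIS2, 0.96 for LTRIS_Mm, 0.84 for LTRIS4B and 0.75 for LTRIS_Mus. In the RLTR1 group they were 1.30 for RLTR1E_MM, 1.11 for RLTR1C, 0.96 for RLTR1A2_MM, 0.74 for RLTR1B and 0.52 for RLTR1B-int. Among the RLTR41 and RLTR48 families they were 1.06 for RLTR41, 1.02 for RLTR48A, 0.93 for RLTR48B and 0.70 for RLTR41A2. MER67D had the highest, 2.03. The change was lower in the Activator line for MER92-int (-0.66), MER110A (-0.81) and MER72B (-2.02).

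Of these 20, 12 lost the call when replicate 1 or 3 was left out of all groups, and 6 of the 12 also without 1 library. The other 6 were LTRIS_Mm (0.77 without replicate 3), LTRIS_Mus (0.65 without replicate 1, 0.63 without 3), RLTR1E_MM (0.97 and 1.33), RLTR41 (0.82 and 0.96), RLTR1A2_MM (0.78 without replicate 3) and RLTR1B (0.58 and 0.64). RLTR1B-int lost it without any of 8 libraries, with values from 0.37 to 0.53, and LTRIS4B without any of 8, with values from 0.65 to 0.88. RLTR48B gave 0.67 without induced Activator replicate 3, and MER110A gave -0.65 without uninduced Activator replicate 3. MER92-int gave -0.58 without uninduced Control replicate 1 and -0.49 without uninduced Activator replicate 3. RLTR41A2 gave 0.56 and 0.65 without induced Control replicates 1 and 3, and 0.49 without induced Activator replicate 3.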

How the results depend on the processing

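Scaling to mitochondrial mRNAs was the only alternative run that reversed a value. It gave 65 ERV1 families called at 12 h and 44 at 24 h, 17 for the difference between lines in the change on induction and 83 for Activator cells at 24 h against induced ones. The log2 ratio of the ERV1 sums became 0.10 (induced), 0.059 (3 h), -0.018 (6 h, reversed), 0.46 (12 h) and 0.37 (24 h). RLTR4_MM-int at 6 h (-0.072), MURVY-LTR at 6 h (-0.023) and MLTR14 at 12 h (-0.12) changed sign. The cause was not tested. DESeq2 size factors gave sums of 0.83 at 6 h and 1.26 at 12 h, gene library sizes without TMM 0.51 and 0.95, and library sizes from repeat families 0.46, 0.67 and, at 24 h, 0.38. A fold limit of 1 on the log2 scale left 29 calls after induction, 50 each at 3 and 6 h, 32 at 24 h, 31 for induction within the Activator line, 22 for the difference between lines (16 higher, 6 lower) and 9 for 24 h against induced. The last comparison also gave 58 without TMM, 20 with a mean of at least 100 counts, 53 with no fold limit and 14 with library sizes from repeat families. With that minimum of 100 counts, induction within the Activator line gave 44 higher and 2 lower, and the difference between lines 36 and 2. Under these alternatives the shares of all repeat families called were not counted.

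Leaving out a replicate number or a library gave 0 to 2 calls in uninduced cells, 15 to 67 for the difference between lines (without replicate 3 and without replicate 2) and 13 to 51 for 24 h against induced. A fit of the 12 uninduced and induced libraries gave 1 call in uninduced cells. Over 11 comparisons, the fit with no replicate block gave 0, 71, 85, 89, 102, 71, 67, 0, 46, 32 and 0 calls, each within 1.5 times the count with the block. Same-numbered libraries correlated from -0.0154 to 0.465 over 18 pairs, 16 of them over 0.1, and 16 of 18 correlated best with their own number. DESeq2 in place of edgeR gave 0, 72, 93, 96, 108, 78, 75, 0, 53, 31 and 0. Of 108 family values, 46 kept their direction and call under each alternative run. With 3 libraries a group no exact test can pass, and falls in families under 100 counts rest on few reads.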

Other observations

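Some internal regions with few reads, outside the naming rule and picked with their values in view, were also higher in Activator cells. MER34-int ranged from 13.2 to 39.5 normalised counts in the 18 Control libraries and stood at 22.3, 29.0 and 29.3 in uninduced Activator cells, 157, 82.4 and 119 in induced ones, 311, 239.8 and 268 at 12 h, and went to 201, 96.6 and 188 by 24 h. MER89-int ranged from 1.01 to 12.4 normalised counts in the 18 Control libraries and stood at 7.13, 5.00 and 5.42 in uninduced Activator cells, 38.7, 16.5 and 34.4 in induced ones, 91.3, 78.0 and 90.3 at 12 h, and went to 78.7, 25.8 and 55.2 by 24 h. In both, every Activator library from induction on lay above every Control library, and replicate 2 was the lowest at 24 h. The LTR row MERV1_LTR, with more reads, ranged from 548 to 784 normalised counts in the 18 Control libraries and stood at 679, 642 and 676 in uninduced Activator cells, 1749.7, 1106 and 1944 in induced ones, 2058, 1851 and 2065 at 12 h, and went to 1847, 984 and 1637 by 24 h, again without overlap.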
